A study of Homo sapiens with 14 samples.

Results

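RUNX1, RUNX2, RUNX3 and CBFB are the 4 genes that encode the core binding factor, and they were read here from a table of raw read counts that holds 58037 gene IDs. They were picked by name, through GENCODE release 29 symbols for the Ensembl IDs of the table, and all 4 were found and passed the filter on low counts in every comparison. The cells were OCI-AML2, a human acute myeloid leukaemia line, sequenced in 14 libraries. In the parent line both RUNX1 alleles are intact (wild type). In the mutant lines F3 and G7, 1 RUNX1 allele carries the R174* stop codon and the other is intact. The total RNA set comprised 2 wild-type libraries with the treatment label None, 4 mutant control libraries (2 of F3, 2 of G7) and 4 mutant libraries (2 of F3, 2 of G7) exposed for 8 h to 100 nM HHT. HHT is homoharringtonine, a plant alkaloid that inhibits protein synthesis on the ribosome. RiboLace captures translating ribosomes with a puromycin-like probe and sequences the RNA they carry, and 2 wild-type and 2 mutant libraries were made this way, both mutant ones from F3. The mutant controls are labelled as 8 h controls, while their descriptions give 0 h. If the second label is right, HHT and time in culture cannot be told apart. The wild-type descriptions also give 0 h. If the 8 h label of the mutant controls is right, genotype and time in control culture cannot be told apart in total RNA. No wild-type library was treated with HHT, no HHT library was pulled down, and each genotype rests on 1 parent line and 2 mutant lines. Whether replicates came from separate cultures is not stated, and the p-values reflect no more than the spread among the libraries at hand.

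RUNX proteins bind DNA through the Runt domain, and CBFB is their shared partner, which does not touch DNA itself but strengthens their binding and protects them from degradation. RUNX1 is needed for the emergence of blood stem cells and for myeloid and megakaryocytic maturation, RUNX2 is best known as the master factor of bone formation, and RUNX3 acts in T cells, sensory neurons and the gut. RUNX1 and CBFB are among the genes most often mutated or rearranged in acute myeloid leukaemia. Each RUNX gene is transcribed from a distal and a proximal promoter.

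Total RNA libraries held 19250789 to 21925693 counts, and RiboLace libraries 465052 to 2034796. The 4 genes had 1013 to 5011 reads each per total RNA library. In RiboLace RUNX2 had 2731 to 9637 reads, while RUNX1 had 67 to 270, RUNX3 41 to 117 and CBFB 35 to 155. Levels are given as CPM, counts scaled to library size with TMM factors (trimmed mean of M values) within each assay. The cell type marker levels in this paragraph were scaled to library totals alone. Of 8 myeloid markers, 6 stood at 1 CPM or more in every library, with summed levels of 961 to 1468 CPM in total RNA. ANPEP and CD68, also in that list, were near 0. The B cell markers summed to 0.958 to 2.24 CPM in total RNA, the T cell markers to at most 0.0993, and the haemoglobin genes HBB and HBA1 had no read in any library. Other lists were not near 0. Megakaryocyte markers summed to 2.96 to 28.2 CPM in total RNA, with ITGA2B at 0.695 to 23.8, GP9 at 1.74 to 4.36 and PF4 at 0. Markers of adherent cells summed to 17.1 to 167 CPM there, with PECAM1 alone at 17.1 to 167. In bulk RNA, fewer cells that express a gene and less RNA per cell cannot be told apart.

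RUNX1 (ENSG00000159216.18) lies on chromosome 21, 34787801 to 36004667, minus strand, of GRCh38. RUNX2 (ENSG00000124813.20 in the table, version 21 in the annotation) lies on chromosome 6, 45328157 to 45664349, plus strand. RUNX3 (ENSG00000020633.18) lies on chromosome 1, 24899511 to 24965121, minus strand, and CBFB (ENSG00000067955.13) on chromosome 16, 67029116 to 67101058, plus strand. RUNX2 overlaps SUPT3H, a gene of a histone acetyltransferase complex on the opposite strand, with 432 to 636 reads in total RNA and 3 to 24 in RiboLace. Another gene on that strand, the antisense AL096865.1, had 18 to 54 and 0 to 3 reads. The labels do not state that counting used strand, and reads of these pairs cannot be told apart where their exons meet. The genes that overlap RUNX1 and RUNX3 had at most 3 reads in any library, and none overlaps CBFB.

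The codon that the R174* label names is shown first, since it defines the mutant lines. In the 453-codon reading frame of transcript RUNX1-202, the codon with the number in the label is CGA, an arginine codon that a single base change at its first position turns into the stop codon TGA. It lies in exon 3 of 6 of that transcript, at 34859484 to 34859486 of chromosome 21, and 279 codons follow it. In the longer frame of 480 codons from the distal promoter (RUNX1-201), the same bases are codon 201, in exon 5 of 8. The reference sequence around it, from the GENCODE transcripts on the minus strand at chr21:34859474-34859506, has the codon in capitals.
RUNX1 codon: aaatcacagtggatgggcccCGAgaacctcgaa
The counts are per gene and carry no bases, so the share of reads from the allele with the stop codon was not measured.

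The second set of sequences is shown because RUNX proteins bind the letters TGTGGT or TGCGGT, and the distal promoters of RUNX2 and RUNX3 carry such letters. RefSeq promoter windows on GRCh38.p14, from 250 bases before to 50 after the start, were at hand for both promoters of RUNX2 and RUNX3 and for the proximal one of RUNX1. Searched on both strands, TGTGGT or TGCGGT occurred in 19.6% of 35116 promoters. The distal promoter of RUNX2 held TGTGGT 4 times and TGCGGT 1 time, and the distal promoter of RUNX3 held TGTGGT 2 times and no TGCGGT. The proximal promoters of RUNX1, RUNX2 and RUNX3 held neither. The longest run of letters that promoters of RUNX2 and RUNX3 share is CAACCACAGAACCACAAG, which holds TGTGGT 2 times in tandem, read on the opposite strand as ACCACA. Because the run was chosen from these windows, its matches in the distal promoters of RUNX2 and RUNX3 were fixed in advance. Searched on both strands, it was found in these 2 of the 35116 promoters and in no other. How often other runs of this length recur was not tested. The sites are shown with the shared run in capitals, at chr1:24965120-24965149 on the minus strand for RUNX3 and at chr6:45328338-45328367 on the plus strand for RUNX2.
RUNX3 distal promoter: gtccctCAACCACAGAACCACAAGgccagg
RUNX2 distal promoter: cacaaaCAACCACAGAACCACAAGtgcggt
The run began at position -133 from the start site in RUNX3 and at position 15 after it in RUNX2. These are matches of letters, and binding was not measured here.

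All 4 genes were expressed in wild-type cells at levels of the same order. RUNX1 stood at 142 and 132 CPM, RUNX2 at 55.7 and 74.6, RUNX3 at 68.7 and 65.9, and CBFB at 87.6 and 96.8. Longer genes collect more reads, so the genes were set against each other only per kilobase. Over the summed exon length (15574 bases for RUNX1, 8192 for RUNX2, 4523 for RUNX3 and 4129 for CBFB), CBFB stood highest at 21.2 to 23.4 CPM per kb in wild type. RUNX3 followed at 14.6 to 15.2 CPM per kb. RUNX1 (8.47 to 9.10 CPM per kb) and RUNX2 (6.79 to 9.11 CPM per kb) overlapped. The order of RUNX1 and RUNX3 turned with the length used: over the longest transcript (7274 and 4340 bases), RUNX1 stood at 18.1 to 19.5 CPM per kb and RUNX3 at 15.2 to 15.8. CBFB stayed highest with both lengths, at 27.9 to 30.9 CPM per kb over its longest transcript.

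**Figure D1:**
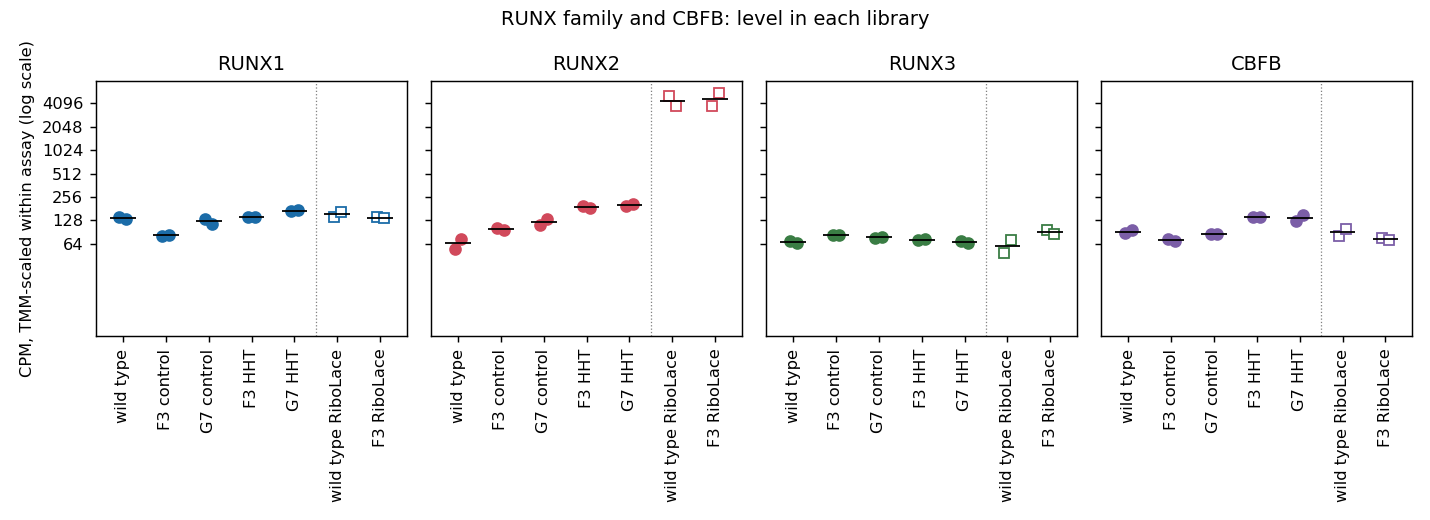
Level of RUNX1, RUNX2, RUNX3 and CBFB in each of the 14 libraries, in CPM scaled by TMM within each assay, on a log scale. Points are libraries, filled circles for total RNA and open squares for RiboLace, and bars are group means; RUNX2 stands at 55.7 to 206 CPM in total RNA and at 3780 to 5633 in RiboLace, while the other genes stay between 48.3 and 172 CPM throughout.

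The first comparison asked how the core binding factor genes differ between cells with and without the RUNX1 stop codon. RUNX2 was higher in the mutant, by 1.70-fold, while RUNX1, RUNX3 and CBFB did not pass the test when both lines were taken as 1 group. Between the lines the picture differed most for RUNX1 itself, which was lower in F3 but stood near wild type in G7. RUNX2 was the gene that passed the test in both lines.

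The wild-type libraries held RUNX2 at 55.7 and 74.6 CPM, the F3 controls at 103 and 97.0, and the G7 controls at 113 and 134. All 4 mutant libraries lay above both wild-type libraries. The wild-type mean was 65.1 ± 13.4 CPM (SD over 2 libraries) and the mutant mean 112 ± 16.0 CPM (SD over 4), which the fit put at a log2 fold change of 0.77 ± 0.16 (standard error, SE; edgeR adjusted p = 0.0317). It was the only member called of 4, where 4.56% of the 13949 genes tested were called. By line, RUNX2 exceeded wild type by 0.61 ± 0.13 in F3 (log2, edgeR adjusted p = 0.00402) and by 0.91 ± 0.13 in G7 (edgeR adjusted p = 0.000102). The 2 lines differed by 0.30 ± 0.13, which did not pass (edgeR adjusted p = 0.154) but did without control replicate 3, a G7 library (0.41, adjusted p = 0.0336). The call over both lines rested on the 2 wild-type libraries: without replicate 1 the log2 fold change was 0.57 (adjusted p = 0.326), and without replicate 2 it was 1.00 (adjusted p = 0.0859).

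For RUNX1 the levels were 142 and 132 CPM in wild type, 80.0 and 84.3 in F3, and 134 and 117 in G7. The F3 libraries lay below all others, and 1 of the 2 G7 libraries lay between the wild-type ones. The log2 fold change was -0.74 ± 0.11 in F3 (edgeR adjusted p = 0.00015) and -0.14 ± 0.11 in G7 (edgeR adjusted p = 0.431). G7 exceeded F3 by 0.61 ± 0.11 (edgeR adjusted p = 0.000942), so the difference between the lines passed the test. With the lines as 1 group the fold change was -0.41 ± 0.19 and did not pass (edgeR adjusted p = 0.256), but it did when genes of low count were kept in the fit (-0.41, adjusted p = 0.0207).

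RUNX3 stood at 68.7 and 65.9 CPM in wild type, 82.7 and 84.3 in F3, and 77.2 and 78.0 in G7. CBFB stood at 87.6 and 96.8 CPM in wild type, 73.0 and 68.7 in F3, and 84.5 and 86.3 in G7. In RUNX3 all mutant libraries lay above wild type, and in CBFB all lay below it. Counting RUNX2, 3 of the 4 members had no overlap between mutant and wild type, where 32.8% of all genes tested had none. RUNX3 passed in F3 by a narrow margin (log2 fold change 0.30 ± 0.10, edgeR adjusted p = 0.0491) and CBFB passed in F3 (-0.39 ± 0.11, edgeR adjusted p = 0.0168). In G7 they stood at 0.20 ± 0.10 (edgeR adjusted p = 0.213) and -0.12 ± 0.10 (edgeR adjusted p = 0.489). All 4 members were thus called in F3 and 1 in G7, where 18.1% and 17.7% of genes were called. The differences between the lines did not pass for RUNX3 (-0.11 ± 0.10, edgeR adjusted p = 0.566) or CBFB (0.27 ± 0.11, edgeR adjusted p = 0.11), and RUNX1 was the 1 member called between them, against 12.5% of all genes. The RUNX3 call in F3 was lost without any 1 of its 4 libraries (adjusted p = 0.102 to 0.252), and the CBFB call was lost without wild-type replicate 2 or either F3 library (adjusted p = 0.105 to 0.191).

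The genes that work with RUNX proteins were read from lists taken from general knowledge. The lists were chosen with earlier results of these data known, so their counts beside the share of all genes are descriptive and no independent test. Among 20 tested transcription factors that bind DNA next to RUNX, 2 rose and 2 fell in the mutant, where 4.56% of all genes were called, with a median log2 fold change of 0.13 against 0.00 over all genes. GATA2, a factor of stem and progenitor cells, rose by 2.60 ± 0.43 (edgeR adjusted p = 0.0128), from a mean of 12.05 CPM to 43.6 in F3 and 103 in G7. MYB, a factor of progenitor growth, rose by 0.66 ± 0.10 (adjusted p = 0.0104). ETS1, an ETS family factor that binds cooperatively with RUNX1, fell by 1.36 ± 0.16 on the log2 scale (adjusted p = 0.00287), and JUN, a subunit of AP-1, fell by 0.46 ± 0.11 (adjusted p = 0.0453). None of 23 tested cofactors and none of 20 tested enzymes that modify RUNX proteins passed with the lines as 1 group. By line, 5 cofactors rose and 3 fell in F3, and 1 rose and 3 fell in G7. Of the enzymes 2 rose and 3 fell in F3, and 3 rose and 4 fell in G7. Of all genes 18.1% were called in F3 and 17.7% in G7.

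Genes known to respond to RUNX1 were tested in 26 cases, of which 8 rose and 2 fell in the mutant (median 0.21), where 4.56% of all genes were called. PRTN3, the granule protease proteinase 3, rose by 2.02 ± 0.13 (edgeR adjusted p = 0.000137), and ELANE, neutrophil elastase, by 3.54 ± 0.36 (adjusted p = 0.00148). MYL9, a myosin light chain that RUNX1 activates in platelets, rose by 1.42 ± 0.13 (adjusted p = 0.000896). CCND3, cyclin D3, fell by 1.35 ± 0.13 (adjusted p = 0.00135), from a mean of 197 CPM to 87.6 in F3 and 68.0 in G7. By line, 9 rose and 4 fell in F3, and 13 rose and 5 fell in G7, against 18.1% and 17.7% of all genes called. In G7 GATA1, a factor of red cell and platelet precursors, was higher by 4.41 ± 0.39 (adjusted p = 4.26e-07), at a mean of 4.62 CPM against 0.21. Beside it, ITGA2B, the platelet integrin and a megakaryocyte marker, stood at 20.6 CPM in G7, 3.86 in F3 and 1.30 in wild type, while PF4, another such marker, had no read. The part of these marker levels in the G7 values was not tested.

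**Figure D2:**
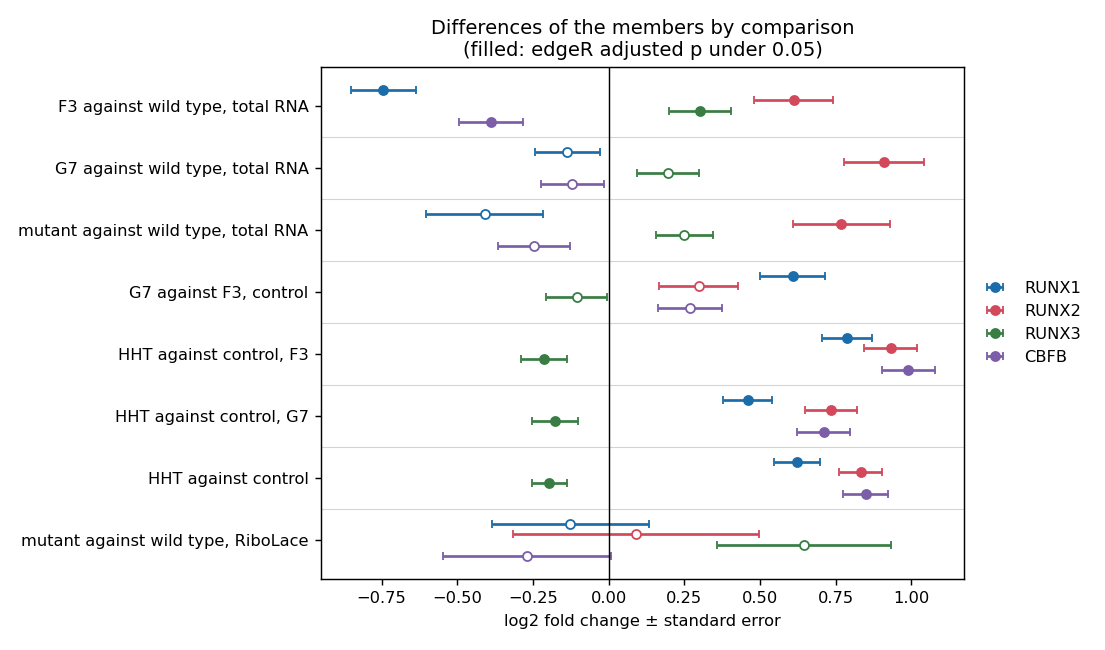
Log2 fold changes of RUNX1, RUNX2, RUNX3 and CBFB in 8 comparisons, with bars of 1 standard error to each side and filled points where the edgeR adjusted p was under 0.05. RUNX2 lies right of 0 in the 7 total RNA comparisons plotted, RUNX1 lies at -0.74 in F3 and -0.14 in G7 against wild type, and under HHT RUNX1, RUNX2 and CBFB lie right of 0 and RUNX3 left of it in both lines.

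The second comparison asked what 8 h of HHT does to the same genes in the mutant lines. RUNX1, RUNX2 and CBFB rose, by 1.54-fold, 1.78-fold and 1.80-fold, and RUNX3 fell by a small amount that depended on the scaling. HHT moved most of the transcriptome: 77.9% of the 14435 genes tested were called, 39.5% higher and 38.4% lower. A call of a member among them is therefore common. Groups without overlap were also common, at 65% of the genes tested, and all 4 members were among these.

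RUNX1 stood at 80.0 and 84.3 CPM in F3 controls and at 141 and 143 after HHT. In G7 it went from 134 and 117 CPM to 167 and 172. The HHT libraries of F3 stood next to the higher wild-type library (142 CPM), and those of G7 lay above every untreated total RNA library. How many of all genes do the same was not computed. The log2 fold change over both lines was 0.62 ± 0.08 (SE, edgeR adjusted p = 2.81e-06), from 104 ± 25.9 to 156 ± 16.2 CPM (SD, n = 4 each).

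RUNX2 stood at 103, 97.0, 113 and 134 CPM in the controls and at 195, 187, 198 and 206 after HHT, in the order F3, F3, G7, G7. The treated libraries lay close together, with an SD of 7.72 CPM around a mean of 196 (n = 4), while the controls had an SD of 16.0 around 112. The log2 fold change was 0.83 ± 0.07 (edgeR adjusted p = 5.52e-08).

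CBFB stood at 73.0, 68.7, 84.5 and 86.3 CPM in the controls and at 141, 140, 126 and 149 after HHT, in the same order. Every treated library also lay above both wild-type libraries, which differ from them in genotype as well as treatment. The share of all genes with such a gap was not computed. The log2 fold change was 0.85 ± 0.08 (edgeR adjusted p = 8.96e-08), with means of 78.1 ± 8.60 and 139 ± 9.64 CPM (SD, n = 4 each).

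RUNX3 stood at 82.7, 84.3, 77.2 and 78.0 CPM in the controls and at 71.1, 72.9, 68.9 and 66.3 after HHT. All treated libraries lay below all controls, and near the 2 wild-type libraries (68.7 and 65.9 CPM). The log2 fold change was -0.20 ± 0.06 (edgeR adjusted p = 0.00592). With library totals in place of TMM it stood at 0.02 (adjusted p = 0.73), and there the median of all genes moved from -0.00 to 0.21, so RUNX3 lay below that median under both scalings. The call was also lost when genes of low count were kept in the fit (-0.15, adjusted p = 0.125).

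RUNX1, RUNX2 and CBFB rose in each line. In F3 the log2 fold changes were 0.79 ± 0.08 for RUNX1, 0.93 ± 0.09 for RUNX2 and 0.99 ± 0.09 for CBFB (edgeR adjusted p = 2.5e-07, 6.77e-08 and 3.44e-08), and in G7 they were 0.46 ± 0.08, 0.73 ± 0.09 and 0.71 ± 0.09 (edgeR adjusted p = 8.67e-05, 1.12e-06 and 1.73e-06). RUNX3 stood at -0.21 ± 0.08 in F3 (edgeR adjusted p = 0.0186) and -0.18 ± 0.08 in G7 (edgeR adjusted p = 0.047), and both calls were lost when single libraries were left out (-0.18 and an adjusted p of 0.162 in F3 without HHT replicate 1, -0.14 and 0.253 in G7 without HHT replicate 4). In these fits 71.8% and 71.2% of all genes were called. The response in G7 minus that in F3 was -0.33 ± 0.11 for RUNX1 (edgeR adjusted p = 0.135), -0.20 ± 0.12 for RUNX2 (0.437 for the same adjusted p), 0.04 ± 0.11 for RUNX3 (0.911) and -0.28 ± 0.12 for CBFB (0.243). None of the 4 was called, where 3.8% of all genes were. With the replicate numbers of the titles as a block, the smaller response in G7 passed for RUNX1 (-0.33, edgeR adjusted p = 0.00532) and CBFB (-0.28, adjusted p = 0.0207). The descriptions number the libraries otherwise, and with G7 paired by those numbers neither passed (edgeR adjusted p = 0.263 and 0.379), so these calls rest on the pairing taken. The RUNX3 calls in F3 and G7 were lost as well under the numbers of the descriptions (edgeR adjusted p = 0.0551 and 0.11). Without control replicate 4, a G7 library, RUNX1 passed as well (-0.38, adjusted p = 0.0288).

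The RUNX proteins share 1 partner, CBFB, and the makeup of the family was also described per library, as the share of each gene in the summed RUNX reads per kilobase of exon. RUNX2 took 35.7% of these reads in the controls and 48.5% after HHT (means of 4 libraries), and RUNX3 went from 47.0% to 31.3%. The RUNX2 share was 33.0% to 39.7% in controls and 47.5% to 49.5% after HHT, with no overlap. The difference of 12.9 points had an adjusted p of 0.0381 (exact permutation test, two-sided, 4 against 4 libraries, adjusted over 4 tests). The RUNX3 share differed by -15.7 points (adjusted p = 0.0381, same exact test). Shares of a library add to a whole, so the RUNX2 and RUNX3 differences are not separate results. Any quantity without overlap gets an unadjusted exact p of 0.0286 here, and 65% of all genes tested had no overlap under HHT. This test exchanges libraries across the lines. With libraries paired by replicate number, the exact p of both was 0.125, the smallest that 4 pairs allow. The mean RUNX1 share was 17.4% in the controls and 20.2% after HHT, with overlapping libraries and a difference that did not pass (2.86 points, exact permutation adjusted p = 0.171). With RUNX2 left out of the sum, the RUNX1 share was higher after HHT by 12.2 points (exact permutation p = 0.0286, the smallest that 4 against 4 libraries can give).

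CBFB per kilobase stood at 0.496 of the summed RUNX reads per kilobase in the controls and at 0.683 after HHT. The difference of 0.187 passed (exact permutation adjusted p = 0.0381, and 0.125 with the pairs), and no treated library (0.609 to 0.711) overlapped a control (0.463 to 0.519). In wild type this ratio was 0.682 and 0.729, and RUNX1, RUNX2 and RUNX3 took 27.8%, 25.1% and 47.1% of the RUNX reads per kilobase on average. The RUNX1 and RUNX3 shares depended on the length used. Over the longest transcript, RUNX1 took 43.5% and 39.4% in the wild-type libraries, and RUNX3 35.3% and 33.0%. Over the summed exon length, the shares in F3 controls were 14.7%, 34.0% and 51.3%, and in G7 controls 20.0%, 37.3% and 42.7%. The lines thus held a smaller RUNX1 share and a larger RUNX2 share than wild type, given as values because an exact permutation test with 2 wild-type libraries cannot reach 0.05 here.

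**Figure D3:**
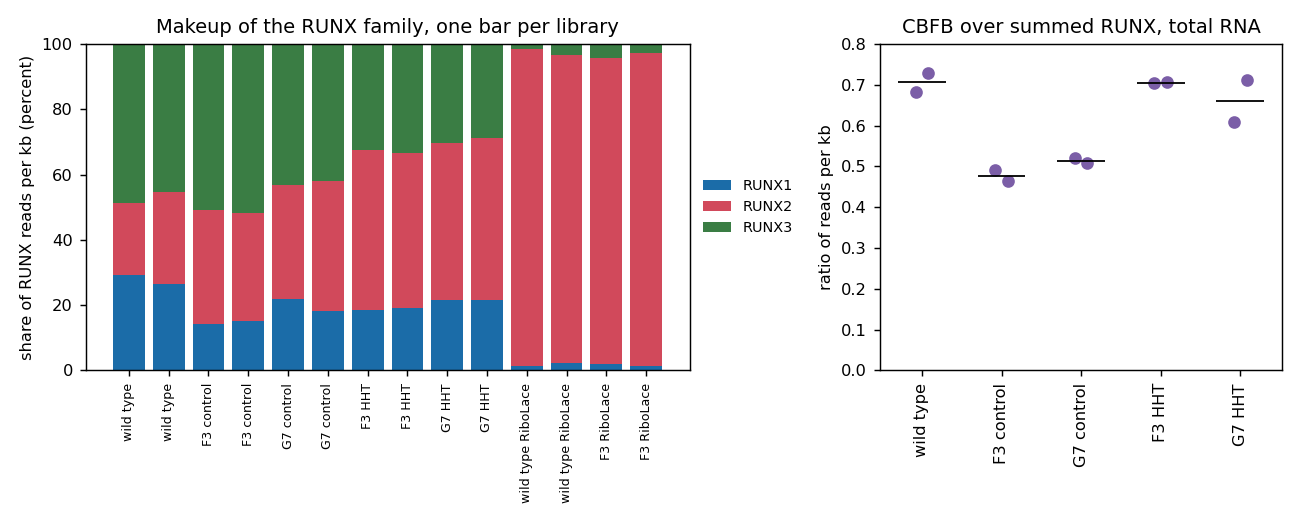
Left, share of RUNX1, RUNX2 and RUNX3 in the summed RUNX reads per kilobase of exon (percent), 1 bar per library; right, CBFB reads per kilobase over that sum in total RNA, with points for libraries and bars for group means. RUNX2 takes 21.9% to 28.3% in wild type, 33.0% to 39.7% in mutant controls, 47.5% to 49.5% after HHT and 93.8% to 96.9% in RiboLace, and the CBFB ratio is lowest in the mutant controls (0.463 to 0.519).

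Among the genes that work with RUNX, HHT moved most members of every list, as it did of all genes. Of 20 tested DNA-binding partners 8 rose and 9 fell (median log2 fold change -0.13). JUN rose by 3.65 ± 0.11 (edgeR adjusted p = 1.95e-12), from a mean of 33.4 to 432 CPM, and ETS2 by 1.84 ± 0.06 (adjusted p = 2.95e-12). MYB fell by 1.81 ± 0.11 (adjusted p = 1.82e-09), from a mean of 731 to 213 CPM, and ETV6, a repressor of the ETS family, fell by 0.95 ± 0.06 (adjusted p = 1.14e-09).

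Of 23 tested cofactors 12 rose and 7 fell (median 0.20). EP300, an acetyltransferase that RUNX1 recruits to activate genes, rose by 1.60 ± 0.08 (edgeR adjusted p = 1.39e-10), and YAP1, a coactivator of the Hippo pathway, by 1.50 ± 0.10 (adjusted p = 5.83e-09). The corepressor TLE1 fell by 2.00 ± 0.08 (adjusted p = 1.51e-11), and the corepressor CBFA2T3 fell by 2.76 ± 0.16 (adjusted p = 9.95e-10). CBFA2T3, a relative of the gene fused to RUNX1 in the t(8;21) leukaemia, went from a mean of 63.6 to 6.29 CPM in F3 and from 66.7 to 13.6 in G7, and its response differed between the lines (G7 minus F3 1.07 ± 0.14, adjusted p = 0.00085).

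Of the 20 modifying enzymes 11 rose and 4 fell (median 0.24). HIPK2, a kinase that phosphorylates RUNX1, rose by 1.05 ± 0.06 (edgeR adjusted p = 1.03e-09). The ubiquitin ligases SMURF1 and MDM2 rose by 1.02 ± 0.07 (adjusted p = 9.04e-09) and 0.77 ± 0.07 (adjusted p = 8.53e-08), while SKP2, part of another ligase, fell by 1.01 ± 0.09 (adjusted p = 8.15e-08).

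Of 28 tested RUNX1-responsive genes 7 rose and 17 fell (median -0.43). PRTN3 fell by 5.11 ± 0.09 (edgeR adjusted p = 1.25e-14), from a mean of 1346 to 38.6 CPM, far below its 330.0 CPM in wild type. ELANE fell by 1.63 ± 0.07 (adjusted p = 1.92e-11), AZU1, another neutrophil granule protein, fell by 1.41 ± 0.06 (adjusted p = 4.29e-11), and CD4, which RUNX1 represses in T cell precursors, fell by 2.14 ± 0.10 (adjusted p = 5.56e-11).

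The third comparison set RiboLace reads against total RNA, and RUNX2 stood apart from the rest of the family in it. RUNX2 stood at 5060 and 3795 CPM in wild-type RiboLace and at 3780 and 5633 in mutant RiboLace, against 55.7 to 206 CPM in the 10 total RNA libraries. All 4 RiboLace libraries lay far above all total RNA libraries, on levels scaled within each assay. The share of all genes with such a gap between the assays was not computed. RiboLace exceeded total RNA by a log2 fold change of 6.27 ± 0.27 in wild type (77.3-fold, edgeR adjusted p = 8.75e-15) and of 5.68 ± 0.26 in F3 (51.2-fold, edgeR adjusted p = 3.88e-14).

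RUNX2 alone took 0.474% and 0.388% of all counts in wild-type RiboLace and 0.379% and 0.587% in the mutant. Ranked by reads among 19726 protein-coding genes, it came 4 and 6 in wild-type RiboLace and 7 and 2 in the mutant, while in total RNA its rank was 3908 and 3083 in wild type, 1542 to 2339 in the controls and 780 to 954 after HHT. By its ratio of RiboLace to total RNA it ranked 265 from the top of 11816 protein-coding genes in wild type (percentile 97.8) and 285 in F3 (percentile 97.6). The table gives no position along a gene, so where on RUNX2 these reads lie was not tested.

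The other 3 genes differed far less between the assays. RUNX1 stood at 142 and 164 CPM in wild-type RiboLace and 140 and 138 in the mutant. Its log2 fold change over total RNA was 0.34 ± 0.16 in wild type, short of the threshold (edgeR adjusted p = 0.0911), and 0.90 ± 0.18 in F3 (edgeR adjusted p = 0.000191). The RUNX1 value in wild type passed with DESeq2 (0.41, adjusted p = 0.00522), with RLE scaling (0.42, adjusted p = 0.0368) and with protein-coding genes alone (0.42, adjusted p = 0.0337).

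RUNX3 stood at 48.3 and 71.5 CPM in wild-type RiboLace and 97.8 and 84.6 in the mutant, with ratios to total RNA of -0.03 ± 0.19 (log2, edgeR adjusted p = 0.918) and 0.30 ± 0.19 (edgeR adjusted p = 0.208). CBFB stood at 81.4 and 98.4 CPM in wild-type RiboLace and 75.2 and 72.2 in the mutant, with ratios of 0.13 ± 0.16 (edgeR adjusted p = 0.539) and 0.21 ± 0.19 (edgeR adjusted p = 0.384). RUNX2 was thus the 1 member called in wild type, and RUNX1 and RUNX2 were called in F3, where 48.3% and 49.2% of the 15338 genes tested were called. Among protein-coding genes the median ratio was -0.11 in wild type and -0.20 in F3.

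**Figure D4:**
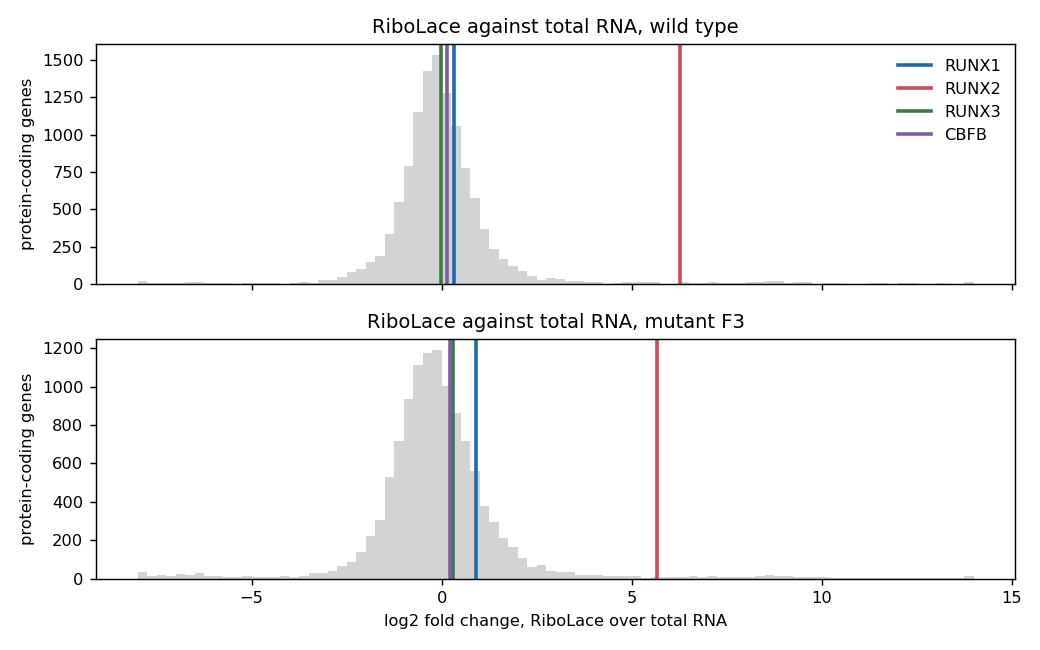
Histogram of the log2 fold change of RiboLace over total RNA for 11816 protein-coding genes in wild type (top) and in mutant F3 (bottom), with a vertical line for each of RUNX1, RUNX2, RUNX3 and CBFB. RUNX2 lies at 6.27 and 5.68, in the far right tail, while the other 3 genes lie between -0.03 and 0.90.

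Mutant and wild type were then compared on ribosomes. None of the 4 genes passed the test there, where 11.8% of 9805 genes did. The log2 fold changes of F3 against wild type were -0.13 ± 0.26 for RUNX1 (edgeR adjusted p = 0.796), 0.09 ± 0.41 for RUNX2 (0.916), 0.65 ± 0.29 for RUNX3 (0.136) and -0.27 ± 0.28 for CBFB (0.557). Both mutant libraries lay above both wild-type libraries for RUNX3 and below them for RUNX1 and CBFB, and such gaps were seen in 58% of the genes tested. RUNX3 passed without wild-type replicate 2 (0.92, adjusted p = 0.0369). The standard errors, 0.26 to 0.41, were above those of the same genes in total RNA, 0.10 to 0.13 for F3 against wild type. RUNX2, which had the most RiboLace reads, had the widest. The RUNX2, RUNX3 and CBFB differences seen in total RNA of F3 (0.61, 0.30 and -0.39) are smaller than 2 of their RiboLace standard errors. The RUNX1 difference in total RNA of F3 (-0.74) is larger than 2 of its RiboLace standard errors (0.26 each), while RiboLace gave -0.13. The part of read depth and of spread between libraries in these errors was not tested.

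The difference between the genotypes in the ratio of RiboLace to total RNA, which stands for translational efficiency, also gave no call among the 4 genes, against 1.49% of all genes. It was 0.57 ± 0.24 (log2, F3 minus wild type) for RUNX1 (edgeR adjusted p = 0.225), -0.59 ± 0.31 for RUNX2 (0.345), 0.32 ± 0.27 for RUNX3 (0.59) and 0.08 ± 0.25 for CBFB (0.97). In RUNX1 the F3 libraries stood at 80.0 and 84.3 CPM in total RNA against 142 and 132 in wild type, and at 140 and 138 on ribosomes against 142 and 164. The RUNX1 value passed with DESeq2 (0.61, adjusted p = 0.0363).

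The same lists were read on ribosomes. Of the DNA-binding partners 19 were tested between F3 and wild type, of which 3 rose and none fell, where 11.8% of all genes were called. GATA2 rose by 2.09 ± 0.28 (edgeR adjusted p = 7.54e-06), SMAD3, a TGF-beta signal transducer, by 1.45 ± 0.35 (adjusted p = 0.00731), and ETV6 by 0.84 ± 0.28 (adjusted p = 0.0464). Of 19 cofactors 2 rose, a share near that of all genes, among them the methyltransferase KMT2A by 1.00 ± 0.27 (adjusted p = 0.0138), and of 20 modifying enzymes 4 rose and 2 fell. CDK6, a cell cycle kinase that binds RUNX1, rose by 1.55 ± 0.30 (adjusted p = 0.00121). Of 22 RUNX1-responsive genes 3 rose and 4 fell, among them CSF1R, the macrophage growth factor receptor, which fell by 5.04 ± 0.85 (adjusted p = 0.000199) from a mean of 22.1 to 0.418 CPM. The mutant mean is near the floor of libraries with 1192811 and 465052 counts, so the size of this fall is uncertain. In total RNA CSF1R stood at a mean of 16.4 CPM in wild type and 6.91 in F3 controls.

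RUNX2 was not the sole gene of these lists with a high ratio of RiboLace to total RNA. SMURF2, a ubiquitin ligase that acts on RUNX2, stood at 24.1 CPM in wild-type total RNA and 224 in RiboLace, a log2 fold change of 3.40 ± 0.18 (edgeR adjusted p = 2.43e-13). The kinases HIPK1 and HIPK2 followed with 3.27 ± 0.22 (adjusted p = 2.82e-11) and 2.38 ± 0.17 (adjusted p = 1.26e-10), and ETS1 with 2.51 ± 0.33 (adjusted p = 1.56e-06). In F3 the values of SMURF2, HIPK2 and ETS1 were 3.58 ± 0.18, 3.27 ± 0.18 and 3.36 ± 0.38 (adjusted p = 1.24e-13, 5.82e-13 and 1.51e-07).

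The 4 genes did not share 1 pattern over the 10 total RNA libraries. On log2 CPM, RUNX1 went with CBFB (Pearson r = 0.82) and against RUNX3 (r = -0.86), RUNX2 with CBFB (r = 0.75), and RUNX1 with RUNX2 only loosely (r = 0.42). RUNX3 and CBFB stood at r = -0.70, and RUNX2 and RUNX3 at r = -0.13. These values describe 10 libraries that share lines and treatments and are not independent.

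Of 9766 protein-coding genes, the ones most like RUNX1 over these libraries were DDX46, a splicing helicase (r = 0.981), PJA1 (0.976), RRP1 (0.974), TAF15 (0.969) and NOC2L (0.967). Those most like RUNX2 were NT5C2 and RNF217 (both 0.99), WDR26 (0.989), RB1CC1 (0.987) and SMIM14 (0.986). RUNX3 was matched less closely, by CD84, a receptor of leukocytes (0.976), RASA3 (0.974), MXD4 (0.954), MAPKAPK2 (0.953) and ERCC1 (0.948). CBFB was most like ACTR5, a subunit of the INO80 chromatin remodeller (0.991), PARPBP (0.991), GINS4, a replication factor (0.989), SRSF2, a splicing factor (0.988), and CBR4 (0.987).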

How the data were processed

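The authors deposited raw read counts per gene, 1 table of 14 libraries. The submitters' processing notes name GRCh38, STAR 2.6.0b and DESeq2 without saying what each was used for. How reads were counted, with which annotation and strand setting, and how RiboLace libraries were made is not given in the sources used here. Of 58037 gene IDs, 57433 matched GENCODE release 29.

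The deposited counts were tested in R 4.3.3 with edgeR 4.0.16 (filterByExpr, TMM, quasi-likelihood F-test, Benjamini-Hochberg adjustment over all genes tested, called under 0.05). HHT against control had line as a covariate. Lines, the difference in HHT response and the RiboLace to total RNA ratio were contrasts of fits by group, the last with F3 alone as the mutant match and 1 spread for both assays. SE is the absolute log2 fold change over the square root of F, and approximate. Lists of partners (23 genes), cofactors (26), modifying enzymes (20) and RUNX1-responsive genes (34), partly overlapping, came from general knowledge; per list and comparison up to 4 called members with the smallest adjusted p were eligible to be named. Likeness used log2 CPM (prior count 2). The members and lists were chosen with earlier results of these data known. The procedure was tested on simulated data with 1 spread for all genes, for HHT against control and for mutant against wild type in each assay. Contrasts by line, of HHT response and of RiboLace to total RNA were not simulated. Replicate pairs differed beyond sampling noise (chi-square per degree of freedom 2.95 to 11.3), so each library counted as 1 sample. Replicate numbers of the titles follow the cell lines in control and HHT libraries. Deviations of same-numbered libraries had r of 0.504 to 0.587 from the treatment means, and 0.152 (F3) and 0.324 (G7) once the line means were removed too. The descriptions carry other numbers, which cross the G7 pairs (r = -0.324). Alternatives were RLE factors, library totals, no filter, DESeq2 1.42.0, each library left out, the block and other lengths; protein-coding genes alone, RUNX2 left out of the family sum and a block by the numbers of the descriptions were chosen after seeing the data.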

Additional observations from a re-analysis of the deposited data

Results flagged for a closer look

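In the 4 HHT libraries, the ratio of CBFB reads per kilobase to summed RUNX reads per kilobase was 0.609 in G7 replicate 3 and 0.704 to 0.711 in the other 3, a gap wide enough to set that library apart by Dixon's criterion. It was 1 of 16 groups examined, and chance sets about 1 in 20 apart. CBFB itself stood at 126 CPM in that library and at 140 to 149 in the others. All 4 ratios lay above those of the control libraries.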

How the results depend on the processing

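Among the values of the 4 genes and the family makeup recomputed under other settings, 624 kept their direction and, where tested, their side of the threshold. A further 15 newly passed, 28 no longer passed and 16 changed sign. Makeup differences with 1 library left out were not tested, and count as kept when they held their direction and moved by less than 1 SD. In RiboLace RUNX1, RUNX3 and CBFB had 35 to 270 reads each, and RUNX2, with more, had the widest standard error. The changes were as follows, in log2 unless stated, and their cause was not tested. With library totals, RUNX3 stood at 0.29 in F3 against wild type, 0.022 under HHT, -0.0049 under HHT in F3 and 0.048 in G7, and CBFB at -0.0027 in RiboLace against total RNA of wild type. Library totals moved the median of all genes under HHT from -0.00 to 0.21 and the calls from 5702 higher of 11239 to 6870 of 11216. Without a filter, RUNX1 stood at -0.41 in mutant against wild type, RUNX3 at 0.31 in F3 against wild type, -0.15 under HHT, -0.16 in F3 and -0.13 in G7, and RUNX2 at -0.017 in RiboLace of mutant against wild type. In RiboLace against total RNA of wild type, RLE, DESeq2 and protein-coding genes alone gave RUNX1 0.42, 0.41 and 0.42 and RUNX3 0.052, 0.055 and 0.054. DESeq2 gave RUNX1 0.61 in the ratio of F3 minus wild type. With RUNX2 left out, the RUNX1 share differed by 12.2 points.

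With the replicate block, RUNX1 and CBFB in mutant against wild type stood at -0.74 and -0.39, since numbers 3 and 4 have no wild-type partner and the fit reduces to F3. RUNX3 in F3 stood at 0.30 and did not pass, and the HHT responses of RUNX1 and CBFB, G7 minus F3, passed at -0.33 and -0.28. Blocked, the makeup differences of 12.9 and -15.7 points and 0.187 had an exact p of 0.125, the smallest that 4 pairs allow. Apart from those, the block by title numbers changed no call of the 4 genes. With the numbers of the descriptions, which cross the G7 pairs, the RUNX3 response no longer passed in F3 (-0.21) or G7 (-0.18), the differences in response of RUNX1 and CBFB did not pass (-0.33 and -0.28), and 351 genes were called for that difference. G7 and F3 controls share numbers in the descriptions alone, and blocked by those RUNX2 and CBFB passed in G7 against F3 (0.30 and 0.27, 3217 genes called; r = 0.23). No paired analysis was possible for G7 against wild type, because they share no number in the titles and 1 in the descriptions. Outside control and HHT, where the numbers follow lines, same-numbered libraries share only a number (r of -0.106 to 0.007).

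Leaving out each library gave 0.57 to 1.00 for RUNX2 in mutant against wild type, 0.27 to 0.33 for RUNX3 and -0.46 to -0.31 for CBFB in F3, and 0.17 to 0.41 for RUNX2 in G7 against F3. RUNX3 under HHT ranged from -0.27 to -0.18 in F3 and from -0.20 to -0.14 in G7, and the RUNX1 response difference from -0.38 to -0.20. In RiboLace of mutant against wild type, RUNX2 ranged from -0.23 to 0.35 and RUNX3 from 0.36 to 0.92. In RiboLace against total RNA of wild type, RUNX3 ranged from -0.31 to 0.20 and CBFB from -0.013 to 0.28, and the CBFB ratio difference from -0.037 to 0.18.

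Counts of all genes called moved more. Mutant against wild type called 636, and 1655 without a filter, 1116 with DESeq2, 2652 with the block and 43 to 649 without 1 library. The HHT response difference called 548, and 823, 592, 2153 and 178 to 1089 in that order. RiboLace of mutant against wild type called 1154, 415 with DESeq2 and 247 to 1811 without 1 library. The ratio difference called 229, 151 with library totals, 527 without a filter, 606 with DESeq2, 361 with protein-coding genes and 24 to 1497 without 1 library. F3 against wild type (2518), G7 against F3 (1743) and RiboLace against total RNA in F3 (7548) ranged over 948 to 3250, 847 to 2278 and 4679 to 7885.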

Other observations

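Some other genes were looked at on ribosomes after their values had been seen. CXXC4, which encodes an inhibitor of Wnt signalling, had 0 reads in all 10 total RNA libraries and 3409, 3849, 3284 and 899 reads in the RiboLace libraries. BRSK1, a brain kinase, had 118 to 289 reads in total RNA and 6735, 7141, 5625 and 1399 in RiboLace. CHD3 was well read in both assays, with 4291 to 6530 reads in total RNA and 5176, 4332, 3547 and 909 in RiboLace. It took 0.0222% to 0.0324% of counts in total RNA and 0.195% to 0.411% in RiboLace. MIR6087, annotated as a microRNA precursor, had 0 to 2 reads in total RNA and took 11.4%, 7.84%, 8.996% and 4.64% of RiboLace counts. RUNX1T1, the partner of RUNX1 in the t(8;21) fusion, had no read in total RNA and stood at means of 3.77 and 7.27 CPM in wild-type and mutant RiboLace. The part of any shared feature of these genes in the RUNX2 counts was not tested.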
